A study of Mus musculus with 6 samples.

Results

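Glycolysis enzymes, their regulators and the carriers that bring glucose into cells and take lactate out were examined in mouse kidneys, as 32 genes chosen by symbol from the 24422 genes of the deposited count tables. All 32 were found and 30 passed the filter on low counts, which kept 15145 genes in all. The kidneys came from wild type C57BL/6 pups at postnatal day 15. Dams of the control group were fed 220 ppm iron, and dams of the iron-deficient group (FeD) were fed a synthetic diet of 2 to 6 ppm iron, from before mating until the kidneys were taken. Each group had 3 kidneys, each sequenced as its own poly-A selected library. The sources used here do not give the litters, so the P values measure the spread between these kidneys, and litter and diet cannot be told apart.

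Glycolysis splits glucose into pyruvate in the cytosol and yields ATP without oxygen, and lactate dehydrogenase then turns pyruvate into lactate so that the pathway can keep running. Most steps are catalysed by isoenzymes from separate genes, which differ in the tissues that use them and in how they are controlled. In the kidney the proximal tubule lives mainly on fatty acids and makes glucose, whereas distal segments and the medulla use glucose more. Many glycolytic genes are known targets of the hypoxia inducible factors (HIF), whose prolyl hydroxylases need iron and oxygen.

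The counts on genes totalled 16189041 to 20374327 per control kidney and 13732173 to 20853293 per FeD kidney, and 3 counts, the smallest signal taken as measurable, stood at 0.144 to 0.218 CPM. The 32 genes held 0.892% to 0.947% of the counts in control kidneys and 0.798% to 0.901% in FeD kidneys. The markers fixed for proximal tubule, thick ascending limb, distal convoluted tubule, principal cells and intercalated cells were present in all 6 kidneys. Other tubule segments had no marker list. Of the markers fixed for proximal tubule, 6 of 8 fell in FeD kidneys and 0 rose, and their summed normalized counts were 166173 to 178695 in control kidneys and 88768 to 98605 in FeD kidneys. Summed principal cell markers of the collecting duct were 18870 to 27792 in control kidneys and 31368 to 51873 in FeD kidneys, with 4 of 5 higher and 1 lower. In whole tissue, fewer cells of a type and less RNA per cell cannot be told apart.

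The glycolysis genes moved in both directions. At an adjusted P under 0.05 (edgeR quasi-likelihood, adjusted over all 15145 genes), 14 of 30 members were called, against 45.7% of all tested genes. Of these, 6 rose, against 22.4% of all tested genes, and 8 fell, against 23.3%. The share of members called was thus close to the background. A change of at least 2-fold was reached by 4 members that rose, against 4.34% of all genes, and by 2 that fell, against 5.69%. The ranges of both groups were apart in 16 of the 30 members, against 58.1% of all genes: 8 were higher in all FeD kidneys, against 28.4%, and 8 lower, against 29.7%. The median log2 fold change was -0.023 over the members and -0.0018 over all tested genes, and the members ranged from -1.35 to 1.74.

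**Figure D1:**
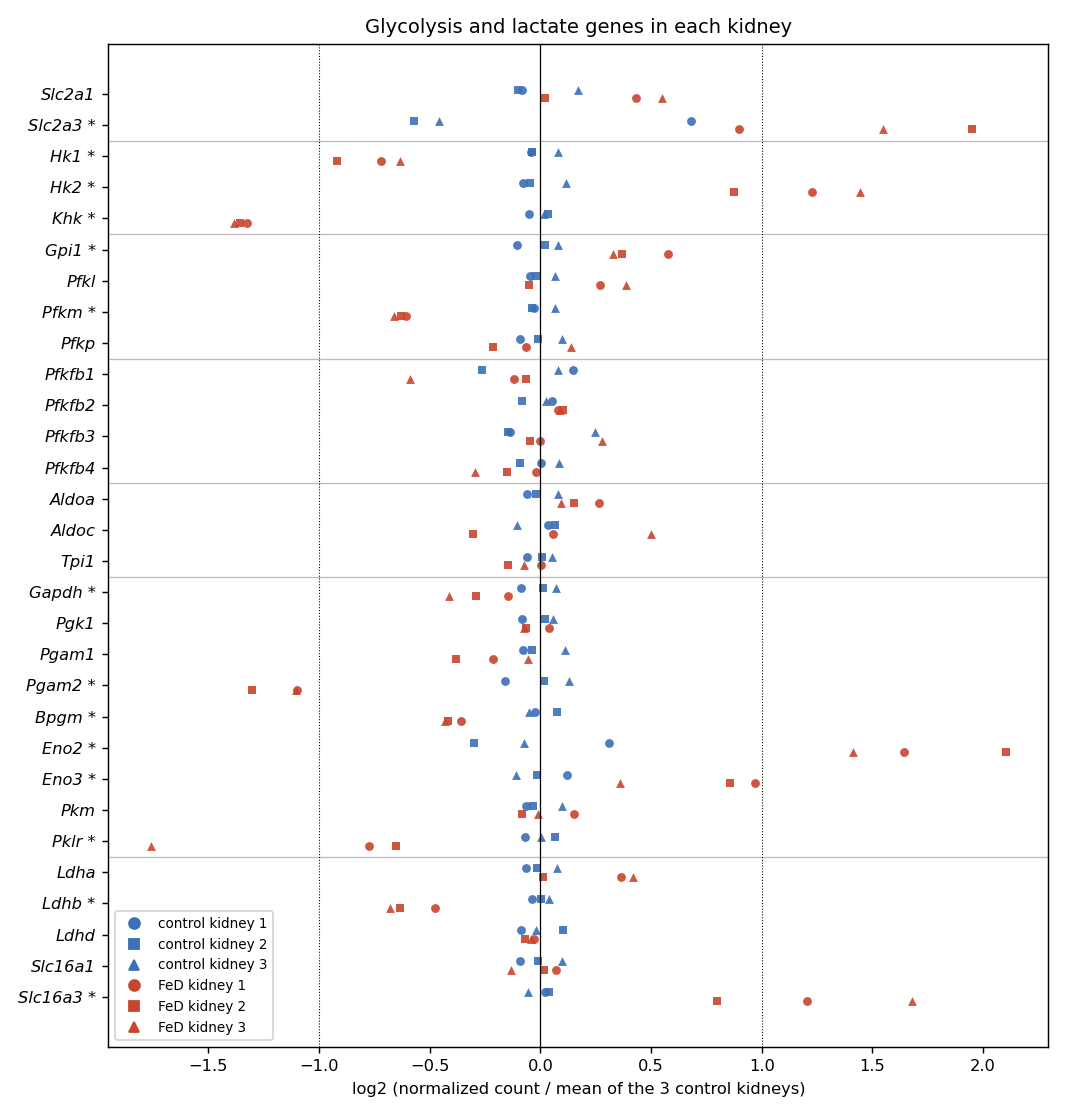
Each row is a gene of glycolysis or lactate transport, and each point is a kidney, as the log2 of its normalized count over the mean of the 3 control kidneys (blue, control; red, FeD; symbols mark kidneys 1 to 3; dotted lines, 2-fold; an asterisk marks an adjusted P under 0.05). Slc2a3, Hk2, Eno2 and Slc16a3 lie to the right and Khk and Pgam2 to the left of most members, while all points of the regulators Pfkfb1 to Pfkfb4 stay within the 2-fold lines.

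The genes that rose at least 2-fold were of low abundance. Per kilobase of annotated exon, Eno2, Hk2, Slc16a3 and Slc2a3 had 15.96 ± 3.49, 19.0 ± 1.40, 16.04 ± 0.552 and 7.95 ± 4.14 normalized counts in control kidneys (mean ± SD, n = 3), which placed them at ranks 28, 26, 27 and 30 of the 32 members. The 3 highest levels per kilobase in control kidneys were those of Ldhb at 16790.4 ± 434, Gapdh at 9798 ± 542 and Aldoa at 6277 ± 323. The same 3 genes led in FeD kidneys, with Ldhb at 11112 ± 843, Gapdh at 8069.9 ± 741 and Aldoa at 7064 ± 427. Khk went from rank 7 to rank 10 and Ldha from rank 9 to rank 7. These ranks are uncertain. The Pgk1, Pgam1 and Gapdh transcripts mostly have exact copies elsewhere in the genome, and the main enolase was not resolved, as given below.

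**Figure D2:**
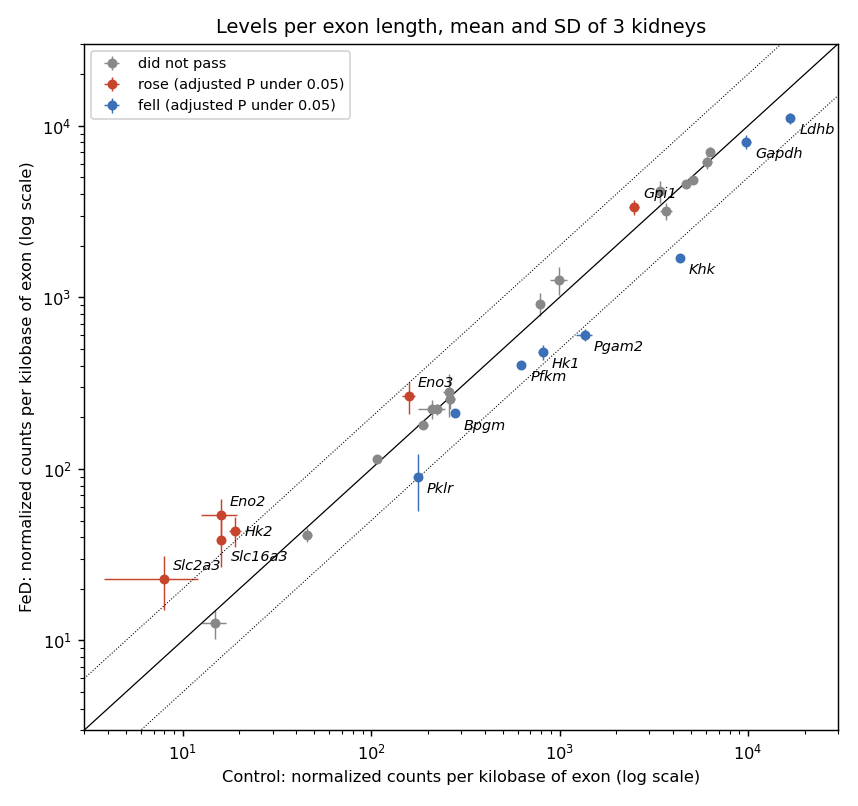
Mean level in FeD kidneys (y axis) against mean level in control kidneys (x axis), both in normalized counts per kilobase of exon on log axes, with bars of 1 SD over 3 kidneys (solid line, equal levels; dotted lines, 2-fold; red, rose; blue, fell; grey, did not pass). The genes that rose more than 2-fold sit at the low end, at 7.95 to 19.0 in control kidneys, and Ldhb, at the high end, fell.

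The letters ACGTG are the core that HIF is known to bind, and the promoters of the members were searched for them on both strands. RefSeq sequences (build GRCm38.p6, from 250 bases before to 50 after each start) were matched for 31 of the 32 members. Slc2a3 had no entry. ACGTG was found in 18 of the 31 members (58.1%), against 21.8% of 27025 genes with such a sequence. It was present in 2 of 5 members that rose, 4 of 8 that fell, 11 of 16 that did not pass and 1 of 2 that were not tested. With GCGTG also admitted, the numbers were 25 of 31 members (80.6%) and 46.7% of all genes. A gene with several starts counted if any of them had a match. The 27025 genes were not matched to the members in number of starts or in expression. These matches describe the letters only, with no test. The 150 bases before the start are shown for 3 genes that rose (Hk2, Slc16a3, Eno2) and for Khk, which fell. They are also shown for Ldha, Slc2a1 and Pgk1, often used as examples of HIF targets. These 3 did not pass with edgeR, whereas Ldha and Slc2a1 passed with DESeq2 (adjusted P = 0.0331 and 0.0311). Capitals mark ACGTG or its reverse complement CACGT, and where they join as CACGTG both strands are counted.
Hk2, chr6:82774455-82774604, minus strand: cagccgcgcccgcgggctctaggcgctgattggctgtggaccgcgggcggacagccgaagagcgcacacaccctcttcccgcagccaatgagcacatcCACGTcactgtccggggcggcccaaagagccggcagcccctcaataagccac
Slc16a3, chr11:120948917-120949066, plus strand: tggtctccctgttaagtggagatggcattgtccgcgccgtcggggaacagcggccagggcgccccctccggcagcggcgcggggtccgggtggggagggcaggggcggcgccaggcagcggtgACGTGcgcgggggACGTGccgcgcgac
Eno2, chr6:124769674-124769823, minus strand: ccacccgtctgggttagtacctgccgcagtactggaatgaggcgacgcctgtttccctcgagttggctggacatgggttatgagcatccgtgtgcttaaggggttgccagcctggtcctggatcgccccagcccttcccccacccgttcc
Ldha, chr7:46845654-46845803, plus strand: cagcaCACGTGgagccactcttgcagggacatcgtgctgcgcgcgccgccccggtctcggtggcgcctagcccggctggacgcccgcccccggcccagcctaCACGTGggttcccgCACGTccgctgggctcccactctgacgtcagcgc
Slc2a1, chr4:119108595-119108744, plus strand: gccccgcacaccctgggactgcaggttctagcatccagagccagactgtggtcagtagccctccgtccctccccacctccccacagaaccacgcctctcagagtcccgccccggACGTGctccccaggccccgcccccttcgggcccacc
Pgk1, chrX:106186950-106187099, plus strand: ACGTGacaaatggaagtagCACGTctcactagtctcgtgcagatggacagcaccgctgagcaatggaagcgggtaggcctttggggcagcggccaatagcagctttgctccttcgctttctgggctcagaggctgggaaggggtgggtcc
Khk, chr5:30921409-30921558, plus strand: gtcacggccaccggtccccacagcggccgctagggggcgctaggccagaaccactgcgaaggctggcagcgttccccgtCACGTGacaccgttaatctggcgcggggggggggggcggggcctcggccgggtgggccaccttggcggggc
The Slc16a3 stretch holds 2 matches, the Hk2 stretch 1 and the Eno2 stretch 0. The Ldha stretch holds 5 matches from 3 places, since 2 of these are CACGTG. The Khk stretch holds CACGTG once, which counts as 2 matches.

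Glucose enters cells through facilitative carriers, of which Slc2a1 (GLUT1) is the common one and Slc2a3 (GLUT3) a carrier of high affinity best known from neurons. Slc2a3 (chromosome 6, 122677827 to 122751658 in mm9) had 92.2, 38.8 and 41.9 normalized counts in the control kidneys and 107, 222 and 169 in the FeD kidneys. Control kidney 1 was high and FeD kidney 1 low, but the groups did not overlap. The log2 fold change was 1.51 (SE 0.38, adjusted P = 0.0121, edgeR). The call was lost by a narrow margin without control kidney 2 (log2 fold change 1.30, adjusted P = 0.0501, edgeR) or control kidney 3 (1.32, adjusted P = 0.0545). Without control kidney 1 the log2 fold change was 2.03 (adjusted P = 0.00507, edgeR). Slc2a1 (chromosome 4, 118781316 to 118809935 in mm9) had 2675, 2638 and 3183 in the control kidneys and 3819.7, 2875 and 4141 in the FeD kidneys. FeD kidney 2 lay among the controls, and Slc2a1 did not pass (log2 fold change 0.35, SE 0.14, adjusted P = 0.0645, edgeR). It passed without FeD kidney 2 (adjusted P = 0.00463, edgeR) and with DESeq2 (adjusted P = 0.0311). Slc2a3 remained the minor carrier of the pair, at 0.810 ± 0.459% of their summed level per kilobase in control kidneys and 1.88 ± 0.967% in FeD kidneys, with overlapping kidneys (2.03% and 4.61% without length scaling).

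Hexokinases trap glucose by phosphorylating it, and Hk1 and Hk2, both able to bind mitochondria, moved in opposite directions. Hk1 (chromosome 10, 61731603 to 61842656 in mm9), the form found in most tissues, had 6719, 6751 and 7315 normalized counts in the control kidneys and 4205, 3661 and 4461 in the FeD kidneys. All FeD kidneys lay below all controls, and Hk1 fell (log2 fold change -0.75, SE 0.088, adjusted P = 0.000372, edgeR). Hk2 (chromosome 6, 82675019 to 82724448 in mm9), the form of insulin-sensitive tissues, had 108, 109.7 and 123 in the control kidneys and 265, 208 and 309 in the FeD kidneys. The groups were far apart, and Hk2 rose with a log2 fold change of 1.20 (SE 0.16, adjusted P = 0.00074, edgeR). Its promoter stretch, shown above, holds 1 match to ACGTG. Of the summed level of Hk1, Hk2 and Hk3 per kilobase, Hk2 made up 2.27 ± 0.0591% in control kidneys and 8.23 ± 0.743% in FeD kidneys, so Hk1 was still the main form at 91.4 ± 0.716%. Scaled by longest transcripts, the share of Hk2 was lower, at 1.25% and 4.65%. Hk3, a form of white blood cells, had only 10 to 17 raw counts in control and 4 to 11 in FeD kidneys and was not tested.

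Ketohexokinase, encoded by Khk, admits fructose to the pathway below the phosphofructokinase step and is most used by the proximal tubule and the liver. Khk (chromosome 5, 31223929 to 31233619 in mm9) had 6982, 7417 and 7307 normalized counts in the control kidneys and 2889, 2828 and 2772 in the FeD kidneys. The FeD kidneys were close together, with a CV of 2.06%, and far below the controls. Khk fell by 1.35 on the log2 scale (SE 0.063, adjusted P = 8.86e-06, edgeR), the lowest value among the 30 members. The mean of the summed proximal tubule markers in FeD kidneys was 0.546 times that in controls, and the mean of Khk 0.391 times. This sum was dominated by Slc34a1, at 0.214 times, while the median log2 fold change of the 8 markers was -0.47, and Slc27a2 and Slc5a12 did not pass, at 1.01 and 1.13 times. Their part in the change of Khk was not tested.

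Glucose 6-phosphate is turned into fructose 6-phosphate by phosphoglucose isomerase, which is encoded by Gpi1. Gpi1 (chromosome 7, 34987141 to 35015308 in mm9) had 10394, 11364 and 11833 normalized counts in the control kidneys and 16711, 14448 and 14061 in the FeD kidneys. The groups did not overlap, FeD kidney 1 was the highest, and Gpi1 rose (log2 fold change 0.43, SE 0.093, adjusted P = 0.00661, edgeR). Gm17327 on the opposite strand overlaps 16.5% of its exon bases.

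Phosphofructokinase, the main control point of the pathway, has a liver (Pfkl), a muscle (Pfkm) and a platelet form (Pfkp). Pfkm (chromosome 15, 97923020 to 97962878 in mm9) had 1878, 1863 and 2002 normalized counts in the control kidneys and 1257, 1235 and 1211 in the FeD kidneys. Both groups were tight, and Pfkm fell (log2 fold change -0.63, SE 0.057, adjusted P = 0.000127, edgeR). Pfkl had a log2 fold change of 0.21 and Pfkp of -0.039, and neither passed (adjusted P = 0.141 and 0.761, edgeR). FeD kidney 2 was at the level of the lowest control for Pfkl, which passed without it (adjusted P = 0.00734, edgeR). Within the family, Pfkm went from 37.4 ± 0.454% of the summed level per kilobase in control kidneys to 25.9 ± 3.00% in FeD kidneys, and Pfkl from 47.0 ± 0.198% to 57.9 ± 2.84%, both without overlap. Pfkp held 15.6 ± 0.405% and 16.2 ± 0.628%. The order of Pfkm and Pfkp depended on the length used: without length scaling Pfkm held 24.4% and 16.3%, and Pfkp 31.4% and 31.3%.

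The regulators Pfkfb1 to Pfkfb4 make or remove fructose 2,6-bisphosphate, which activates phosphofructokinase. None of the 4 passed with edgeR, 0 had an unadjusted P under 0.05, and 0 passed with DESeq2. Their log2 fold changes ranged from -0.25 for Pfkfb1 to 0.088 for Pfkfb2, with adjusted P values of 0.29 to 0.616 (edgeR). Pfkfb3, often named as a HIF target, had 1352, 1342 and 1760.5 normalized counts in the control kidneys and 1482, 1437 and 1799.7 in the FeD kidneys, which overlapped. Per kilobase it was the most abundant of the 4 in both groups, at 55.5 ± 3.29% of the family in control kidneys and 57.0 ± 3.82% in FeD kidneys. Pfkfb2, the heart and kidney form, lay just above the controls in all 3 FeD kidneys.

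Aldolase splits the 6-carbon sugar and triosephosphate isomerase, encoded by Tpi1, interconverts the products. None of Aldoa, Aldoc and Tpi1 passed with edgeR, 0 had an unadjusted P under 0.05, and 1, Aldoa, passed with DESeq2 (adjusted P = 0.0412). Aldoa, the muscle and general form, had 16556, 17026 and 18277 normalized counts in the control kidneys and 20746, 19176 and 18443 in the FeD kidneys. The FeD kidneys lay above the controls by a narrow margin, at a log2 fold change of 0.17 (SE 0.082, adjusted P = 0.123, edgeR). Aldoc, a brain form, differed widely between FeD kidneys, from 680.0 in FeD kidney 2 to 1186 in FeD kidney 3. Tpi1 had a log2 fold change of -0.072 (SE 0.074, adjusted P = 0.459, edgeR).

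In the lower part of the pathway, from glyceraldehyde 3-phosphate to pyruvate, 2 of 9 tested genes rose, 4 fell and 3 did not pass. Of all tested genes 22.4% rose and 23.3% fell. Gapdh (chromosome 6, 125111871 to 125116485 in mm9), widely used as a reference gene in PCR, had 20766, 22276 and 23183 normalized counts in the control kidneys and 19912, 18048 and 16584 in the FeD kidneys. The highest FeD kidney lay just under the lowest control, and Gapdh fell by 0.28 on the log2 scale (SE 0.093, adjusted P = 0.0379, edgeR). This call was lost without control kidney 1, 2 or 3 (adjusted P = 0.0543, 0.115 and 0.136, edgeR) and without FeD kidney 2 or 3 (adjusted P = 0.0793 and 0.0521, edgeR). Pgk1, which makes the first ATP of this part, had 9918, 10648 and 10928 in the control kidneys and 10777, 10039 and 9985 in the FeD kidneys. These ranges overlapped, with a log2 fold change of -0.032 (SE 0.074, adjusted P = 0.749, edgeR).

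Phosphoglycerate mutase has a general form, Pgam1, and a muscle form, Pgam2. Pgam2 (chromosome 11, 5701643 to 5703736 in mm9) had 1022, 1155 and 1247 normalized counts in the control kidneys and 533, 463 and 531 in the FeD kidneys. The FeD kidneys were all far below the controls, and Pgam2 fell by 1.16 on the log2 scale (SE 0.1, adjusted P = 0.000102, edgeR). Pgam1 had a log2 fold change of -0.21 and did not pass (adjusted P = 0.111, edgeR). It passed without FeD kidney 3 (adjusted P = 0.019, edgeR). The share of Pgam2 in the pair went from 26.9 ± 0.96% in control kidneys to 16.01 ± 0.805% in FeD kidneys (14.4% and 8.04% without length scaling). Bpgm, the enzyme that makes 2,3-bisphosphoglycerate in red cells, had 981, 1051 and 963 normalized counts in the control kidneys and 778, 748 and 741 in the FeD kidneys. The groups did not overlap, and Bpgm fell (log2 fold change -0.40, SE 0.071, adjusted P = 0.00256, edgeR).

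Enolase forms phosphoenolpyruvate, and its neuronal form Eno2 and muscle form Eno3 both rose. Eno2 (chromosome 6, 124710071 to 124719691 in mm9) had 93.1, 60.9 and 71.3 normalized counts in the control kidneys and 234, 322 and 199.7 in the FeD kidneys. The lowest FeD kidney was more than 2-fold above the highest control. The log2 fold change of Eno2 was 1.74 (SE 0.23, adjusted P = 0.000606, edgeR), and its promoter stretch holds no ACGTG. Eno3 (chromosome 11, 70470704 to 70476015 in mm9) had 289.9, 264 and 247 in the control kidneys and 523, 484 and 342 in the FeD kidneys. FeD kidney 3 was the closest to the controls, and Eno3 rose with a log2 fold change of 0.75 (SE 0.16, adjusted P = 0.00594, edgeR). Of these 2 genes alone, Eno2 made up 9.13 ± 1.36% in control and 16.8 ± 2.76% in FeD kidneys per kilobase, and 21.8% and 35.9% without length scaling.

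Eno1, the general enolase of most cells, could not be followed by its own symbol. The row of Eno1 held 1 to 3 raw counts in every kidney, at or under the floor, and was not tested. The row of Eno1b, which was looked up after these values were seen and is no member, held 4241 to 5593 raw counts in control and 1939 to 2907 in FeD kidneys. In normalized counts these were 4542, 4698 and 4983 in the control kidneys and 2911, 2521 and 2126 in the FeD kidneys. The groups did not overlap, and Eno1b fell (log2 fold change -0.91, SE 0.11, adjusted P = 0.000434, edgeR). In the GENCODE mm9 annotation this gene is named Gm5506, and 82.5% of the 100-base windows of its transcript occur exactly elsewhere in the genome, against 39.5% for Eno1. Which of these loci the authors' counting gave the reads to cannot be told from the tables, so the main enolase of the kidney was not resolved.

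Pyruvate kinase releases the last ATP of the pathway. Pkm, the form of most tissues, had 13869, 14170.2 and 15509 normalized counts in the control kidneys and 16125, 13686 and 14394 in the FeD kidneys. The groups overlapped and Pkm did not pass (log2 fold change 0.022, SE 0.089, adjusted P = 0.862, edgeR). Gene counts do not separate the spliced forms M1 and M2. Pklr (chromosome 3, 88940064 to 88950706 in mm9), the form of liver, proximal tubule and red cells, had 546, 600.4 and 574 normalized counts in the control kidneys and 335, 365 and 169 in the FeD kidneys. All FeD kidneys were below the controls, FeD kidney 3 by the most, and Pklr fell by 0.995 on the log2 scale (SE 0.24, adjusted P = 0.0107, edgeR). Without FeD kidney 3 the fall was smaller, with a log2 fold change of -0.70. Hcn3 on the opposite strand overlaps 22% of the exon bases of Pklr but had at most 48 raw counts per kidney.

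**Figure D3:**
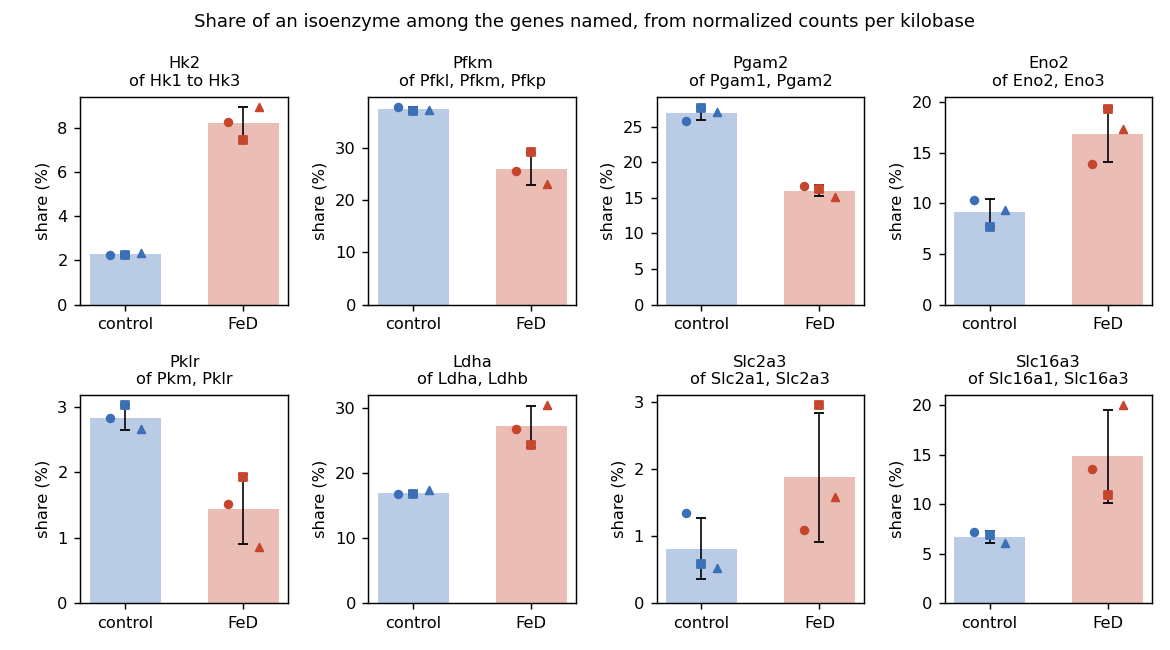
Share of an isoenzyme in the summed level of the genes named above each panel, in percent of normalized counts per kilobase of exon (bars, mean of 3 kidneys starting at 0; error bars, SD; symbols, kidneys 1 to 3). Eno2 is set against Eno3 alone, since the main enolase was not resolved. The level of the Pgam2 share is uncertain, since most of the Pgam1 transcript has exact copies elsewhere in the genome. Hk2, Eno2, Ldha and Slc16a3 take a larger share in all FeD kidneys, Pfkm, Pgam2 and Pklr a smaller share, and the shares of Slc2a3 overlap between groups.

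Several of these isoenzymes are known from other tissues, and the markers of those tissues were read in the same libraries. The 5 skeletal muscle markers summed to 30.3 to 53.2 normalized counts in control kidneys and to 212, 31.2 and 22.5 in FeD kidneys 1 to 3. None of the 5 was at 0 in all kidneys, 3 were too low to be tested and 0 were called. Without FeD kidney 1, the log2 fold changes were 0.64 for Eno3, -1.18 for Pgam2 and -0.63 for Pfkm, and all passed (adjusted P = 0.0194, 0.000782 and 0.000735, edgeR). Of the 5 erythroid markers, the 4 globin rows were at 0 in every kidney, so Alas2 stood alone, at 336 to 762 normalized counts in control kidneys and 414, 200.2 and 92.5 in FeD kidneys 1 to 3. Its part in the changes of Pklr and Bpgm was not tested.

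Lactate dehydrogenase is a tetramer of A and B subunits, of which A is the form of glycolytic muscle and B that of heart and other oxidative tissue. Ldhb (chromosome 6, 142438769 to 142456477 in mm9) had 25674, 26373 and 27036 normalized counts in the control kidneys and 18944, 16962 and 16433 in the FeD kidneys. All FeD kidneys were well below the controls, and Ldhb fell (log2 fold change -0.60, SE 0.084, adjusted P = 0.000876, edgeR). Ldha (chromosome 7, 54096845 to 54110997 in mm9) had 9789.6, 10138 and 10768 in the control kidneys and 13181, 10304 and 13687 in the FeD kidneys. FeD kidney 2 lay within the control range, and Ldha did not pass (log2 fold change 0.28, SE 0.11, adjusted P = 0.0764, edgeR). It passed without FeD kidney 2 (adjusted P = 0.00463, edgeR) and with DESeq2 (adjusted P = 0.0331). Of the summed level of both per kilobase, Ldha made up 16.7%, 16.8% and 17.3% in the control kidneys and 26.8%, 24.2% and 30.5% in the FeD kidneys. The share of Ldha was therefore above every control in FeD kidney 2 too, although Ldhb was still the main form there. Without length scaling the mean shares of Ldha were 28.0% and 41.4%. No test was made of the isoenzyme shares, since an exact permutation test of 3 against 3 cannot go below P = 0.1. Ldhd, a mitochondrial enzyme of D-lactate, had a log2 fold change of -0.047 (SE 0.073, adjusted P = 0.629, edgeR), and 42.2% of its exon bases overlap Znrf1 on the opposite strand.

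Lactate crosses the cell membrane through the monocarboxylate carriers Slc16a1 (MCT1), found in most tissues, and Slc16a3 (MCT4), known for lactate export from glycolytic cells. Slc16a3 (chromosome 11, 120809794 to 120822182 in mm9) had 86.4, 87.5 and 82.0 normalized counts in the control kidneys and 196, 148 and 273 in the FeD kidneys. The controls were close together, whereas the FeD kidneys spread widely, with a CV of 30.6%, all above the controls. The log2 fold change of Slc16a3 was 1.28 (SE 0.22, adjusted P = 0.00223, edgeR), and it stayed between 1.03 and 1.48 when single kidneys were left out. Csnk1d, whose exons lie over 15.6% of those of Slc16a3 in the other direction, had far more counts, at 3346, 3473 and 3447 in the control kidneys and 3746, 3574 and 3988 in the FeD kidneys. Its log2 fold change was 0.14 and did not pass (adjusted P = 0.105, edgeR). Slc16a1 had 931, 984 and 1062 normalized counts in the control kidneys and 1042, 1004 and 906 in the FeD kidneys. These overlapped, and Slc16a1 did not pass, at a log2 fold change of -0.013 (SE 0.084, adjusted P = 0.912, edgeR). The share of Slc16a3 in the pair went from 6.70 ± 0.591% in control kidneys to 14.9 ± 4.70% in FeD kidneys.

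The FeD kidneys varied more than the controls. The CV between kidneys was higher in FeD for 21 of 30 members (70%), against 74.4% of all tested genes. The median CV of the members was 6.08% in control kidneys and 9.73% in FeD kidneys, and that of all genes 5.98% and 11%. In 10 of the 30 members (33.3%, against 19.5% of all genes) FeD kidney 2 was the lowest and FeD kidney 3 the highest of the 3 FeD kidneys. These members were Slc2a1, Hk1, Hk2, Pfkl, Pfkp, Pfkfb3, Aldoc, Pgam1, Ldha and Slc16a3. The summed markers of collecting duct principal cells had the same order, at 46221, 31368 and 51873 normalized counts in FeD kidneys 1 to 3, and so had those of the thick ascending limb, at 100304, 85340 and 141034. The controls of the latter were at 113507 to 120403. Summed podocyte markers also had this order, at 12418, 9397 and 13246 in FeD kidneys 1 to 3, with controls at 11345 to 12356. Among the principal cell markers, Aqp2, Aqp3 and Avpr2 had the order of the sum, whereas Scnn1b and Scnn1g were lowest in FeD kidney 3. The total counts of the libraries had the same order as the sums, at 17833878, 13732173 and 20853293 in FeD kidneys 1 to 3. This order was not among the comparisons fixed in advance, and no other order of the FeD kidneys was counted. The share of members with this order was not tested. None of the markers of these cells was at 0. The part of these cells and of library depth in the order of these members was not tested.

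Distal convoluted tubule markers summed to 31843 to 43445 normalized counts in control and 13835 to 17218 in FeD kidneys, endothelial markers to 10114 to 10568 and 6649 to 8789, and stromal markers to 28697 to 30591 and 17741 to 22716. These sums did not overlap between groups, but the lists were not uniform. Of the endothelial markers 3 of 4 fell, and Pecam1 did not pass. Of the stromal markers Col3a1 and Col1a1 fell, whereas Pdgfrb and Dcn rose. Those of intercalated cells (4309 to 4881 and 4141 to 4541), podocytes (11345 to 12356 and 9397 to 13246), myeloid cells (2062 to 2209 and 1923 to 2252) and adipocytes (7374 to 8236 and 8062 to 9715) overlapped. Single markers changed within them: 3 of 6 myeloid markers (Cd68, Itgam and Fcgr3) rose and Csf1r fell, 3 of 4 adipocyte markers (Plin1, Cfd and Adipoq) fell and Fabp4 rose, and 2 of 4 intercalated cell markers rose and 1 fell. The parts of these cells in the results on glycolysis were not tested.

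The copies of glycolytic genes elsewhere in the genome bear on several rows, because the authors kept uniquely mapped reads of 100 bases. Exact copies were sought for each 100-base window of the annotated transcripts. They were found for 89.8% of the windows of Pgk1, 87.1% of Pgam1 and 75.3% of Gapdh, the last in 91 places of 10 kb. Whether reads from these windows reached the counts cannot be told from the tables. Of the genes that rose, 9.39% of the windows of Gpi1 had such copies, and Slc2a3, Hk2, Eno2, Eno3 and Slc16a3 had none. Of the genes that fell, Gapdh and Ldhb (7.69%) had some, and Hk1, Khk, Pfkm, Pgam2, Bpgm and Pklr had none. Copies with mismatches were not counted.

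**Figure D4:**
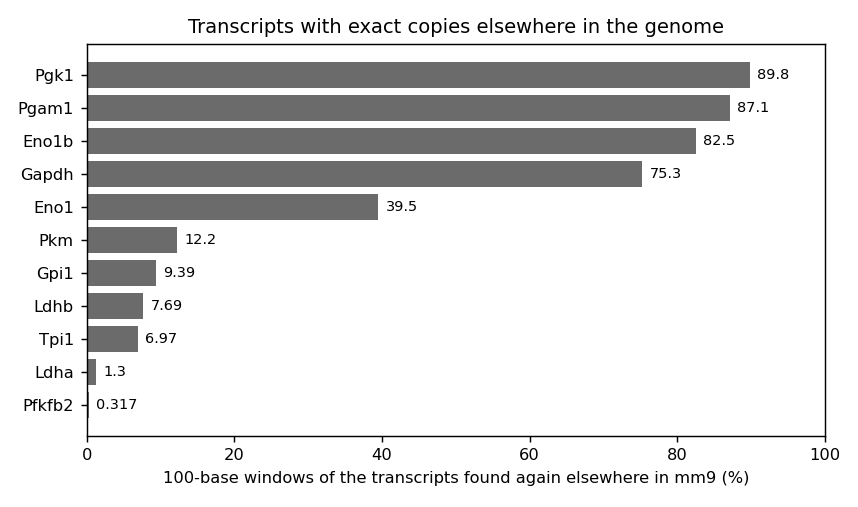
Percent of the 100-base windows of a gene's transcripts (x axis) that occur exactly again elsewhere in the mm9 genome, for the 10 members with any such window and for Eno1b, which is no member (y axis). Pgk1, Pgam1, Eno1b and Gapdh lie above 75%, and Pkm and those under it lie at 12.2% or less.

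The genes that decide where pyruvate and glucose go next were read from related lists. Of 14 genes for the entry of pyruvate into mitochondria, 3 rose and 8 fell, against 22.4% and 23.3% of all tested genes, and the median over the list was -0.28 on the log2 scale. Pdk4, a kinase that switches pyruvate dehydrogenase off, rose from 1035 ± 43.2 to 3732 ± 1305 normalized counts (mean ± SD, n = 3; log2 fold change 1.85, adjusted P = 0.000627, edgeR). Pdp1, a phosphatase that switches it on, also rose, from 439.8 ± 32.6 to 964 ± 175 (log2 fold change 1.13, adjusted P = 0.000432, edgeR). Mpc2, a subunit of the mitochondrial pyruvate carrier, fell from 4166 ± 244 to 2726 ± 125 (log2 fold change -0.61, adjusted P = 0.000323, edgeR). The list thus held changes in enzymes of opposite action.

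Of 8 gluconeogenesis genes 1 rose and 3 fell, which is near the 45.7% of all tested genes called in either direction, and the median was -0.011 on the log2 scale. Among those that fell were Fbp1, which removes a phosphate from fructose 1,6-bisphosphate, and the glucose 6-phosphatase G6pc3, with log2 fold changes of -0.52 and -0.52 (adjusted P = 0.00107 and 0.00282, edgeR). Of 8 pentose phosphate genes 1 rose and 3 fell (median -0.20), again near that background. H6pd, the dehydrogenase of the endoplasmic reticulum, rose with a log2 fold change of 0.81, while Taldo1 and Tkt, which rearrange sugars, had log2 fold changes of -0.79 and -0.79 (adjusted P = 0.000188, 0.000141 and 9.05e-05, edgeR).

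Of 15 tested genes among 18 on the list of other glucose, fructose and monocarboxylate genes, 1 rose and 8 fell (median -0.24), against 22.4% and 23.3% of all tested genes. The sodium-glucose cotransporter Slc5a2 of the proximal tubule had a log2 fold change of -4.89, the carrier Slc16a4 of -1.54 and Tkfc, the triokinase that follows Khk in fructose use, of -1.18 (adjusted P = 3.34e-06, 0.00128 and 8.69e-05, edgeR). The other 3 genes of the list were too low to be tested. Of 22 genes of HIF oxygen sensing and other HIF targets, 13 rose and 3 fell, against 22.4% and 23.3% of all tested genes, and the median was 0.49 on the log2 scale. At least a 2-fold rise was reached by 7, against 4.34% of all genes. The largest rises were those of Epo, Cdkn1a and Ankrd37, at 3.73, 2.84 and 2.42 on the log2 scale (adjusted P = 9.85e-05, 8.86e-06 and 5.92e-05, edgeR). Epo had only 4, 4 and 5 raw counts in the control kidneys, close to the floor, and 71, 35 and 65 in the FeD kidneys. The size of its rise is therefore uncertain. The genes of this list that fell were named after their values were seen. They were the carbonic anhydrase Car9 and the HIF subunits Epas1 and Hif1a, at -0.91, -0.34 and -0.33 (adjusted P = 0.00394, 0.00441 and 0.0182, edgeR). No test was made of the difference between lists.

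**Figure D5:**
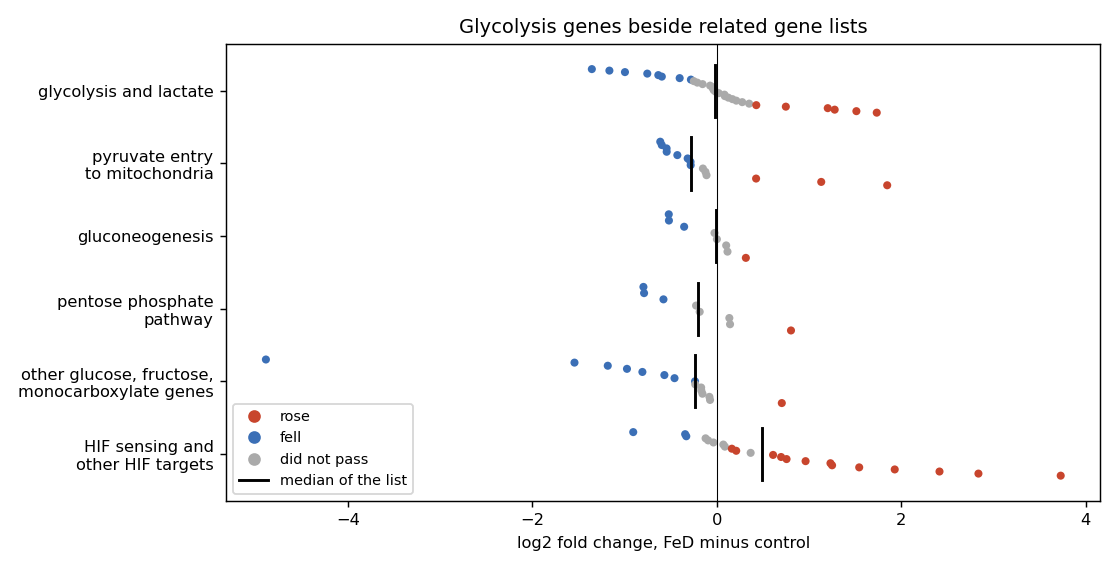
Log2 fold change between FeD and control kidneys (x axis) for each tested gene of the glycolysis and lactate list and of 5 related lists (y axis; red, rose; blue, fell; grey, did not pass; black bar, median). The median of the glycolysis list lies at -0.023, that of the HIF list at 0.49, and those of the other lists between -0.28 and -0.011.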

How the data were processed

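Poly-A selected RNA of whole kidneys was sequenced by the authors from 3 FeD and 3 control pups. Per the labels and the study's methods, base calls were made with CASAVA 1.8.2, reads were trimmed with Trimmomatic and aligned to mm9 with TopHat2 2.0.11, and HTSeq counted the uniquely mapped reads on each gene. What the authors deposited is this raw count per gene and kidney, neither normalized nor pooled. The annotation, the counting mode and the strand setting are not given in the sources used here, so reads of overlapping genes cannot be assigned with certainty. Groups came from the sample labels. Counts on genes totalled 13732173 to 20853293 per kidney, and 3 counts were taken as the floor, which covers counting error only. Library pairs within a group differed by more than counting noise (chi-square per degree of freedom 3.77 to 30.4).

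The 24422 genes were then tested with edgeR 4.0.16 in R 4.3.3 (filterByExpr, TMM, glmQLFit and glmQLFTest), and P values were adjusted by Benjamini and Hochberg over the 15145 genes that passed the filter. Calls required an adjusted P under 0.05, and 2-fold calls also a log2 fold change of 1 in size. The SE was the log2 fold change over the root of the F statistic. Normalized counts were scaled by TMM to the mean library. Levels were compared between genes per kilobase of exon (GENCODE annotation of mm9), as were isoenzyme shares, which were not tested. On simulated counts for this comparison (15041 genes tested), 187 of 200 genes made to differ by 2 on the log2 scale were recovered, with 9 false calls among 14846 unchanged genes.

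The members and the related lists were chosen with earlier results of these data known, and no set test was made. Members that passed, and Gapdh, Ldha, Pkm, Slc2a1 and Pgk1 whatever their result, were given by kidney. In related lists the 3 called genes with the largest change were named, apart from items that are not reported here. Alternatives were other scalings, other filters, DESeq2 1.42.0, the replicate number as a block, globin and mitochondrial genes left out, other gene lengths, and each kidney left out in turn.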

Additional observations from a re-analysis of the deposited data

How the results depend on the processing

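The counts of members called stayed within 1.5 times those reported in all 14 alternatives run. Without single kidneys, 5 to 9 members rose and 7 to 8 fell, 3 to 4 rose and 2 to 3 fell at least 2-fold, and 5019 to 7754 genes were called in all, 1431 to 1707 of them 2-fold. The other alternatives gave 6 to 9 members that rose, 7 to 8 that fell, and 6444 to 6953 genes called, 1119 to 1648 of them 2-fold. The replicate number occurs in both groups, but the deviations of kidneys with the same number correlated at -0.16, 9.6e-05 and -0.035. No kidney correlated best with its own number, so the numbers were not taken to pair the kidneys. With the number as a block, 7 members rose and 7 fell, 4 rose and 3 fell at least 2-fold, and 6444 genes were called, 1534 of them 2-fold. Slc2a1 then passed (adjusted P = 0.0203, edgeR) and Gapdh did not (adjusted P = 0.0737, edgeR).

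Over 30 members and 14 alternatives, 392 values kept direction and call, 9 passed where the reported value did not, 8 no longer passed and 11 changed sign, all of the last in members that did not pass. Without single kidneys, the log2 fold change of Pfkp ranged from -0.13 to 0.061 (above 0 without control kidney 3, at 0.0097, and without FeD kidney 2), that of Pfkfb3 from -0.014 (without FeD kidney 3) to 0.22, and that of Aldoc from -0.096 (without FeD kidney 3) to 0.32. Pgk1 ranged from -0.075 to 0.0047 (without FeD kidney 2) and Ldhd from -0.093 to 0.0022 (without control kidney 2). Slc16a1 ranged from -0.060 to 0.056, above 0 without FeD kidney 3 and, at 0.037, without control kidney 3. Pkm ranged from -0.031 (without FeD kidney 1) to 0.093, was at -0.014 without control kidney 1, and was at -0.0077 with upper quartile scaling. The causes were not tested. Scalings moved the median of all genes to between -0.032 and 0.0073. Leaving out globin and mitochondrial rows removed 21 counts in all. This alternative, counted among the 14, could therefore hardly move a value and is no check of the results. The isoenzyme shares kept their direction with longest transcripts in 24 of 24 cases and without length scaling in 23, the exception being Pfkp, while 67 of the 96 values moved by more than 1 SD. Slc2a1, Pfkl, Aldoa, Pgam1 and Ldha passed in some alternatives and not in others. No log2 fold change is given for Hk3, which did not pass the filter on low counts.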
